A study of Citrus sinensis with 10 samples.

Results

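At 120 days after flowering, the earliest of 5 fruit collections, RNA of the sweet orange (Citrus sinensis) bud mutant Hong Anliu was compared with RNA of its wild type Anliu on a dye-swapped pair of cDNA arrays. The pair was chosen by its labels and makes up 2 of the 10 arrays of the series. On the first array the mutant (R1) was labelled with Cy5 and the wild type (CK1) with Cy3, and on the second the dyes were exchanged. The later collections, at 150, 170, 190 and 220 days, were compared in the same way with extracts of their own, from August to December over the whole series. A bud mutant is a changed shoot kept by grafting, so both lines share nearly all of their genome. The labels give neither the number of trees or fruits behind an extract nor the fruit tissue, and both arrays hold the same pair of extracts. They therefore count as 1 replicate, and no difference at 120 days alone can be tested.

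Hong Anliu is a red-fleshed sweet orange, and its colour is due to lycopene. Lycopene is the red intermediate of the carotenoid pathway: phytoene synthase makes the first colourless carotenoid, desaturases turn it into lycopene, and lycopene cyclases turn lycopene into the orange and yellow carotenes and xanthophylls of an ordinary orange. In late summer, orange fruit is still green and enlarging, and colour, sugar and acid change later as it ripens. None of the clone names matched the gene table at hand, and the files pair no clone with a gene or a sequence. Clones are therefore given by plate, row and column (28.B.6 is plate 28, row B, column 6), and carotenoid genes or fruit tissue markers could not be looked up.

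Of the 5852 clones with signal, 212 were at least 2-fold higher in the mutant on both arrays of 120 days, which is 3.62%, and 304 were at least 2-fold lower, which is 5.19%. Together these 516 clones are 8.82%. The larger differences lay mostly on the lower side. At least 3-fold differences were found for 93 lower clones (1.59%) and 9 higher clones (0.154%). At least 4-fold differences were found for 24 lower clones (0.41%) and 1 higher clone (0.0171%), 57.G.3, which was not above background. Each ratio puts the mutant over the wild type and is given in log2, so that 1 means 2-fold. It is relative to the typical clone of its array, because the loess normalization sets the median clone to 0. The balance of the directions depends on that centre. The higher side made up 41.1% of the 2-fold clones here, 59.3% when each array was centred on its median instead, and 29.6% by the values of the authors' deposited table. Among 3-fold clones the lower side was the larger in each of these, with 93 lower and 28 higher under median centring and 113 lower and 9 higher in the authors' deposited table.

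The control spots stand apart from the clones at 120 days. The median clone spot of the mutant read 1036 and that of the wild type 4556 on the first array, and they read 1728 and 3352 on the second. The controls Y1 to Y4 were brighter in the mutant channel on both arrays: Y1, for example, had a median of 51499 against 27179 on the first and 61384 against 20591 on the second. After normalization the log2 ratios of Y1 to Y4 averaged 2.02 (SD 0.29 over the 4 controls) and 2.04 (SD 0.26). If the arrays are centred on these spots, 5553 clones are 2-fold lower and 0 are higher. The intended ratio of these controls is not given in the sources used here, and their part in the result was not tested. Control Y5 lay at 5.07 and 4.86 and Y6 at -1.38 and -1.43, with the same signs in both dye orientations. Spots named HEX read 90616 and 92694 in Cy3 and 15 and 17 in Cy5, so these spots carried signal in 1 dye only on both arrays.

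The 2 arrays gave nearly the same ratios. Across 5850 clones they correlated at r = 0.90 (Spearman's rho 0.88), with 86.7% of the clones on the same side of 0. The SD of the ratio was 0.61 over clones and 0.20 between the dye-swapped arrays, and the median SD over the 3 spots of a clone was 0.08 on either array. Only 1 array showed a 2-fold difference for 240 clones, and 2 clones were 2-fold in opposite directions. Agreement went with the signal. Among the dimmest 1170 clones the arrays correlated at 0.63, and 14 clones were 2-fold higher and 28 lower. Among the brightest 1170 they correlated at 0.98, and 63 were higher and 71 lower.

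**Figure D1:**
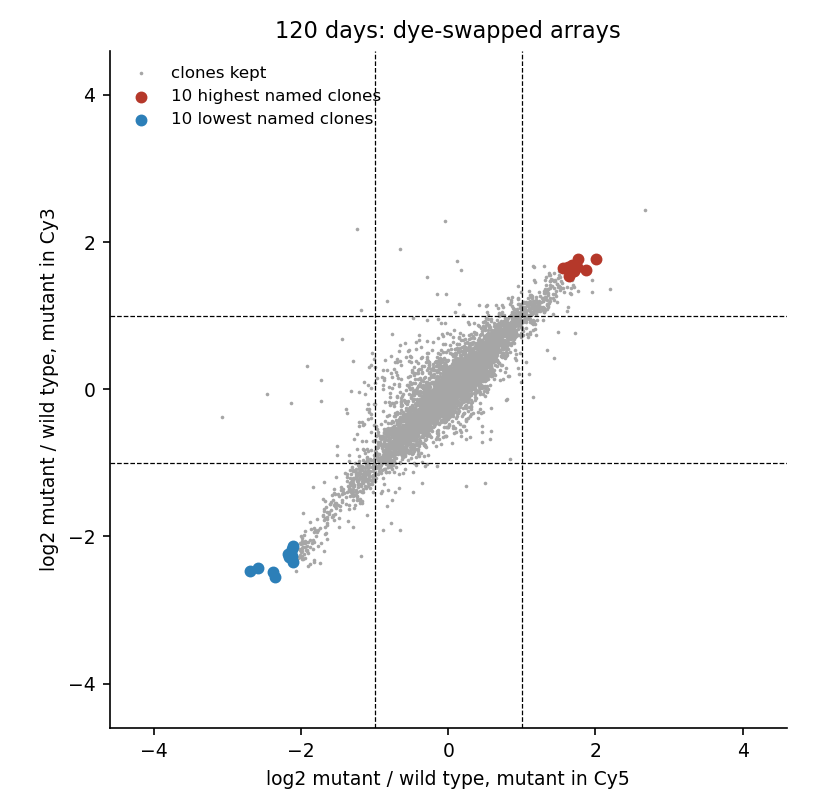
Log2 ratio of mutant over wild type for each clone at 120 days, on the array with the mutant in Cy5 (horizontal) and in Cy3 (vertical). Grey points are the 5850 clones with a value on both, dashed lines mark 2-fold, and the 10 highest and 10 lowest named clones lie close to the diagonal at both ends.

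The lowest ratios belonged to clones with a bright wild-type spot and a mutant spot much dimmer than it. They were ranked by the less extreme of the 2 arrays, among clones above background in both genotypes. Clone 28.B.6 read 439 for the mutant against 11941 for the wild type on the first array, and 897 and 9193 on the second. Its log2 ratios were -2.69 and -2.47, or 5.98-fold lower on average, and its 6 spots lay between -2.84 and -2.42. Clone 12.D.10 read 304 against 7999 and 968 against 9687, with ratios of -2.58 and -2.43. Both clones were low on every spot of both arrays.

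Clones 23.E.3 (-2.39 and -2.48) and 24.G.8 (-2.36 and -2.55) came next. The other 6 of the lowest 10 were 31.F.6, 56.A.7, 40.B.8, 55.C.3, 38.F.4 and 12.D.12, whose mean ratios lay between -2.23 and -2.12. In all 10, the mutant intensity was 304 to 1861 on the first array and 634 to 4491 on the second. The wild type read 7999 to 28450 and 5867 to 29139. These clones were chosen by their ratios on the same arrays, so the gap between the genotypes follows from the choice. The typical clone was also dimmer in the mutant on both arrays. The ratios of the arrays differed by at most 0.24 for any of these 10 clones.

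The highest ratios were smaller and closer together. Clone 13.E.5 stood at 2.01 and 1.76, with intensities of 648 (mutant) against 749 (wild type) on the first array and 1363 and 750 on the second. Clone 33.B.12 stood at 1.77 on both, with 3596 against 4179 and 2857 against 1582. Clone 56.F.5 stood at 1.87 and 1.62 and had the widest spread over spots, from 1.24 to 2.39. The other 7 were 32.H.12, 55.E.2, 52.E.1, 35.C.6, 39.H.1, 40.C.3 and 31.C.12, with mean ratios from 1.59 to 1.70.

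Before normalization these 10 clones had the higher intensity in the wild type on the first array and in the mutant on the second. Their positive ratio on the first array is thus one relative to the typical clone, whose raw log2 ratio was -2.03 there and -0.83 on the second array. The lowest 10 were below the wild type before normalization on both arrays, as was the typical clone, so their ratios are relative to it as well. Clone 40.C.3 depends on the normalization, with a mean of 1.60 after the global loess, 0.97 after a loess within printing blocks and 1.01 in the authors' deposited table. The authors' deposited lowess table lists all 20 clones, with linear ratios of 0.234 for 28.B.6, 0.166 for 23.E.3, 3.19 for 13.E.5 and 2.01 for 40.C.3.

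**Figure D2:**
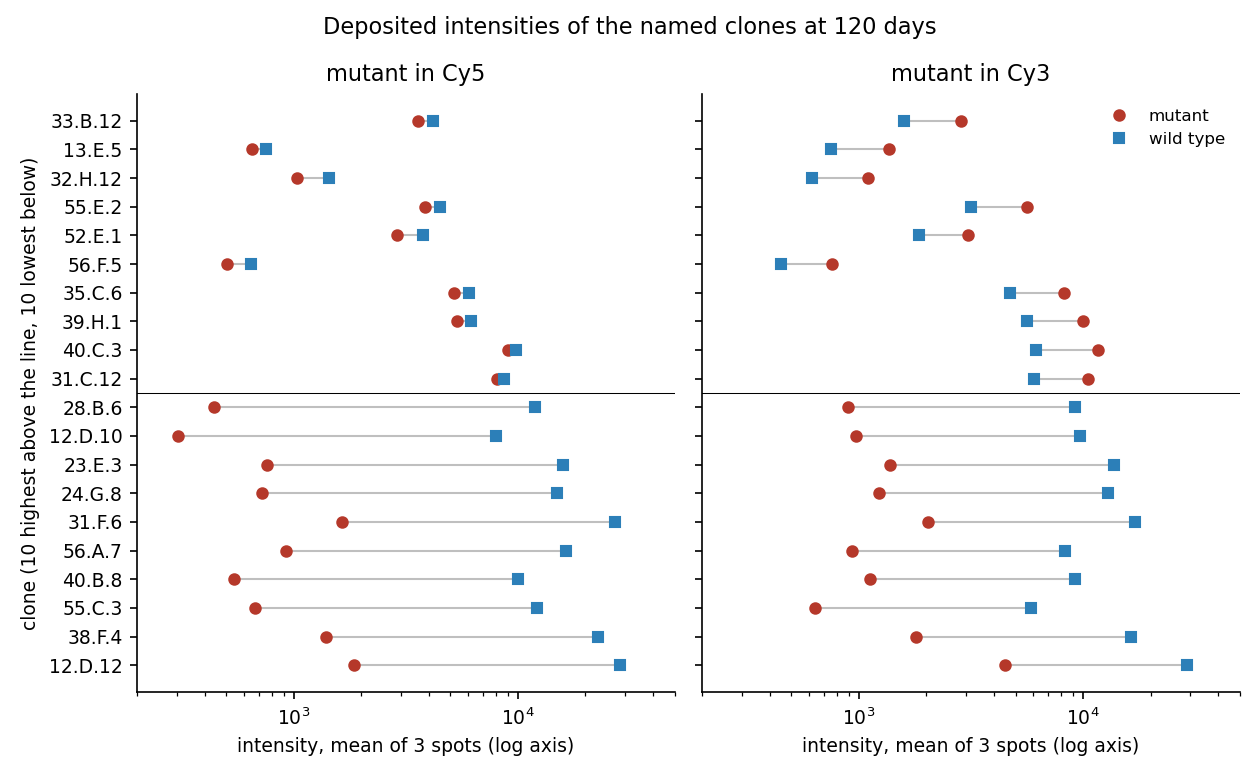
Deposited intensity of the mutant and the wild type for the 10 highest and 10 lowest clones of 120 days, as the mean of 3 spots on a log axis, with the mutant in Cy5 (left) and in Cy3 (right). In the lowest 10 the mutant lies far to the left of the wild type on both arrays, from 304 against 7999 in 12.D.10 to 1861 against 28450 in 12.D.12 on the first.

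The 3 brightest clones did not differ by 2-fold. Clone 36.H.6 had ratios of -0.44 and -0.43, clone 31.D.3 of -0.44 and -0.32 and clone 20.A.1 of -0.04 and -0.07. The clones on which the dye orientations disagreed most were dim: 56.F.2 stood at -1.24 and 2.17 and 42.H.9 at -3.08 and -0.37, and neither was above background in both genotypes. The 2-fold clones were spread over the plates, with 0 to 11 lower and 0 to 9 higher clones among the 96 of a plate. Plates 1 to 29 held 1.98% higher clones and plates 30 to 61 held 5.12%, while the lower clones made up 5.25% and 5.15%. The shares of higher clones were 2.12% and 4.40% with a loess within printing blocks and 6.29% and 7.07% with median centring. Those of lower clones were 4.67% and 4.66% with the former and 3.52% and 5.57% with the latter. The boundary between the plates was taken from earlier results of these data, and no test was made of it.

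Most of the 516 clones fell into a small number of profile groups. They were sorted into these groups by the correlation of their ratios over the 10 arrays (average linkage at r = 0.9). Of the 212 higher clones 85.8% fell into 4 groups of 10 or more clones, and of the 304 lower clones 83.6% fell into 7. Members of a group shared the course over time more than the size of the ratio: at 120 days the clones around 4.F.3 ran from -2.58 to -1.12 and those around 40.G.3 from -2.27 to -1.10. The lowest correlation between any 2 clones of a group was 0.66, in the group around 40.G.3. The files do not tell which clones carry the same transcript. The groups were formed after the values were seen, and they are given as a description. The ratios at 120 days and at the later collections were all among the values that formed them. A like difference in most clones of a group at a later collection thus follows in part from the grouping. The shares of all clones do not allow for this. Each is called by its central clone, the member nearest to the median profile.

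The group with the highest ratios at 120 days was that around clone 40.G.8, with 49 clones from 22 plates, among them 8 of the highest 10. Clone 40.G.8 itself stood at 1.45 and 1.49. In order of time, the group's median ratios in the 5 collections were 1.46 ± 0.19 (SD over the 49 clones), 0.22 ± 0.18, 1.39 ± 0.14, -0.79 ± 0.16 and -1.12 ± 0.27. It was high at 120 and 170 days and below 0 in the last collections. At 170 days 45 of its clones were 2-fold higher, against 7.95% of all clones. At 220 days 27 were 2-fold lower, against 2.19% of all clones.

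In this group the levels of the mutant covered a wider range than those of the wild type. On the log2 level scale, quantile normalized between arrays, its median levels in the mutant were 13.75, 12.72, 13.40, 11.99 and 11.45 over the 5 collections. Those of the wild type stayed between 11.94 and 12.71. Levels of different collections come from different arrays and are relative to the typical clone, so a difference of array and one of fruit cannot be told apart.

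The largest group of higher clones, 62 from 39 plates around 9.G.4, had a median ratio of 1.24 ± 0.13 (SD over the clones) at 120 days. It then stood at 0.31, 0.07, 0.68 and -0.67 at 150, 170, 190 and 220 days. No clone of the group was 2-fold higher at a later time, against 4.37% to 7.95% of all clones per collection. Its level in the mutant was 13.47 at 120 days and 11.78 at 220 days, while that in the wild type lay between 11.78 and 12.49. The group around 39.H.7 held 59 clones, 58 of them on plates 30 to 61, against 3069 of all 5852 clones. Its ratio was 1.15 ± 0.08 at 120 days and -1.73 ± 0.27 at 170 days. There 58 of its clones were 2-fold lower, against 17.1% of all clones. The wild-type levels of this group were 11.44, 12.65 and 13.34 in the first 3 collections, against 12.60, 12.82 and 11.81 for the mutant. Earlier results of these data left the direction of the 170-day arrays in doubt. As labelled, control Y5 stood at 3.22 and 3.56 on these arrays and Y6 at -2.58 and -2.78. These signs are the same as on the arrays of every other collection, and their bearing on the direction was not tested. With the sign of 170 days turned, the group around 39.H.7 would be higher at both times and the group around 40.G.8 would not. The fourth group, 12 clones around 9.F.4, fell from a ratio of 1.18 at 120 days to -0.74 at 220 days.

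Among the lower clones, the group around 40.G.3 held 66 clones, with 5 of the lowest 10. It had 61 of its clones on plates 30 to 61, against 3069 of all 5852 clones. Its median ratios over the 5 collections were -2.03 ± 0.35 (SD over the clones), -1.95 ± 0.39, -1.10 ± 0.29, -0.52 ± 0.26 and 0.79 ± 0.31. As labelled, the ratio stood higher at each later collection. At 150 days 63 of the group's clones were also 2-fold lower, against 5.55% of all clones. At 170 days 39 were, against 17.1% of all clones. With the doubted sign of 170 days turned, that order does not hold and those 39 clones would be higher. The level of the wild type was 13.13 in the first collection and 10.34 in the last. That of the mutant was 11.26 and 11.10 at the same times, with 10.15 at 150 days as its lowest value.

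Clones 28.B.6, 23.E.3 and 24.G.8 belonged to another group, of 21 clones around 4.F.3. None of this group's clones was on plates 30 to 61, against 3069 of all 5852 clones. Its median ratios over the 5 collections were -1.63 ± 0.46 (SD over the clones), 0.27 ± 0.38, -0.94 ± 0.34, 1.44 ± 0.27 and 1.12 ± 0.35. At 190 days 19 of its 21 clones were 2-fold higher in the mutant, against 6.22% of all clones. From 120 to 150 days the level of the mutant went from 11.15 to 13.00 in this group, while that of the wild type went from 13.15 to 12.80. For clone 28.B.6 the mutant's levels at 120, 150 and 190 days were 10.31, 12.94 and 14.27, and the wild type's were 12.89, 12.72 and 12.76.

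The largest group of lower clones, 74 around 39.E.2, was at -1.29 ± 0.14 (SD over the clones) in the first collection and at 0.88 ± 0.23 in the last. The 43 clones around 39.A.1 were at -1.64 ± 0.32 at 120 days and at -1.70 ± 0.36 at 170 days. At 220 days 29 of them were 2-fold higher in the mutant, against 4.37% of all clones. The 23 clones of the group around 3.C.2 were all on plates 1 to 29, against 2783 of all 5852 clones. This group went from -1.20 at 120 days to 0.81 at 190 days. That around 10.B.12 (14 clones) went from -1.37 to 1.29 at 220 days, and that around 54.G.8 (13 clones) from -1.35 to 0.16. Clone 12.D.12 was in the last of these, and 12.D.10, 13.E.5 and 56.F.5 were in none of the 11 groups.

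**Figure D3:**
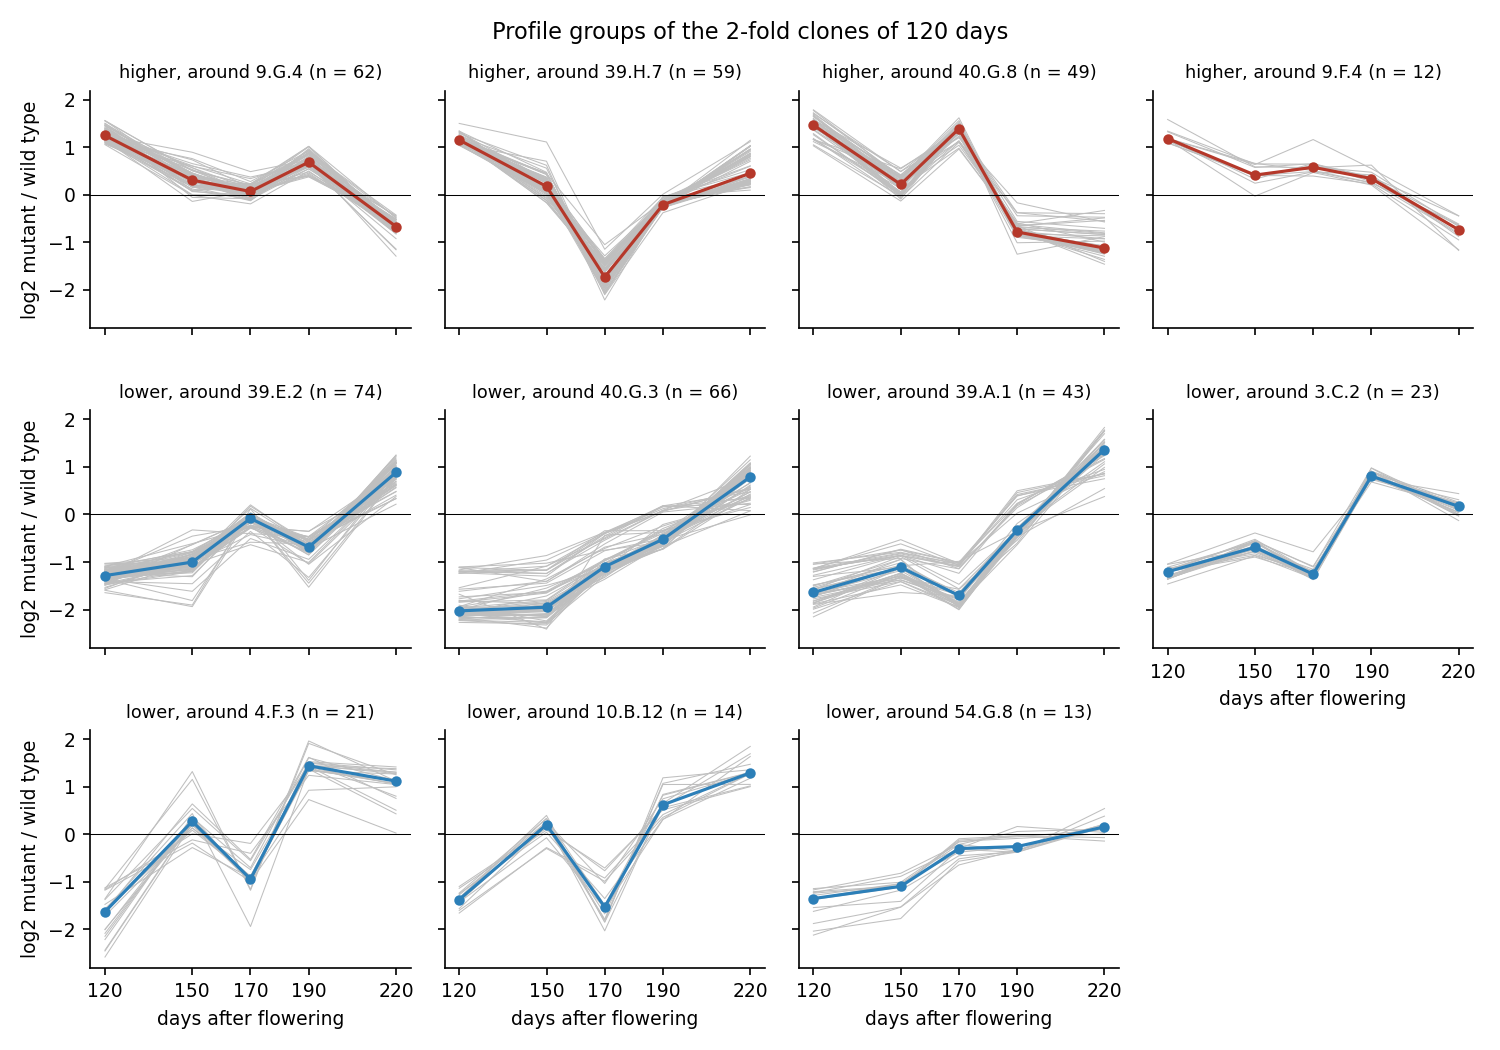
Log2 ratio of mutant over wild type against days after flowering for the 11 profile groups of 10 or more clones among the 2-fold clones of 120 days. Grey lines are clones, as the mean of both arrays of a collection, and the coloured line is the group's median; the groups of lower clones start at medians from -2.03 to -1.20, and all 7 lie above 0 at 220 days.

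**Figure D4:**
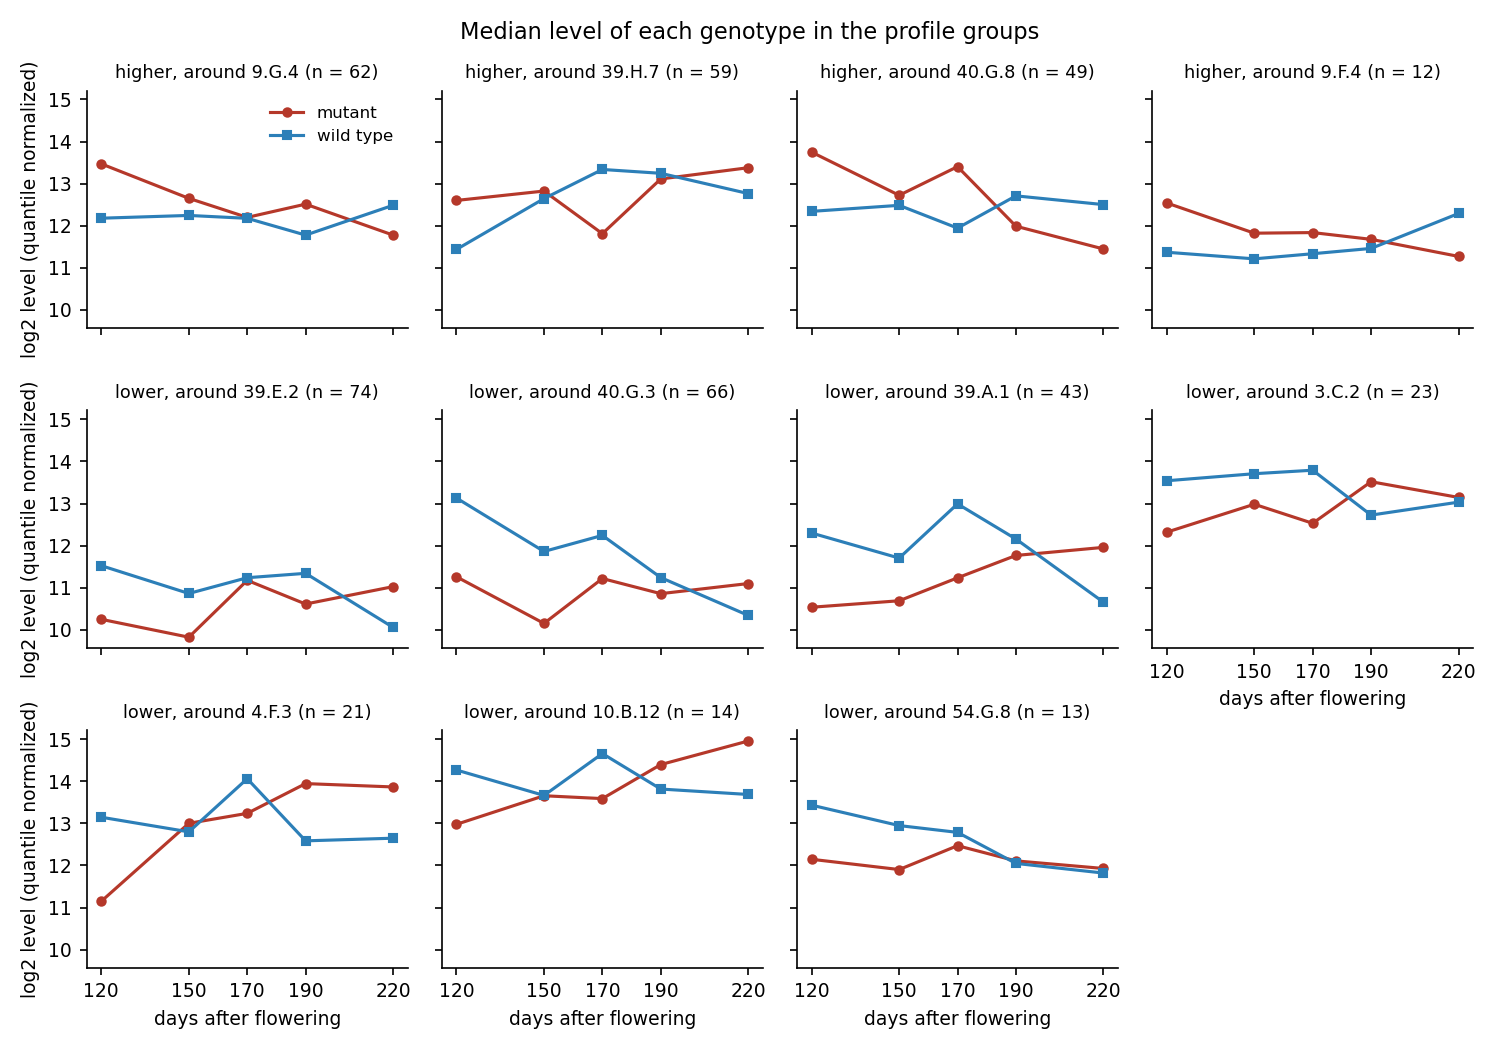
Median log2 level of the mutant (circles) and the wild type (squares) against days after flowering in the same 11 groups, quantile normalized between arrays. In the group around 40.G.3 the wild type starts at 13.13 and ends at 10.34, and in the group around 4.F.3 the mutant starts at 11.15 and stands at 13.00 at 150 days.

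Of the 304 lower clones 122 were also 2-fold lower at 150 days (40.1%), where 5.55% of all clones were lower and 7.18% higher, 12.7% in all. At 170 days 116 were 2-fold lower (38.2%, against 17.1% of all clones) and 6 higher, and with the sign of 170 days turned these counts would change places. At 190 days 25 were 2-fold higher (8.22%, against 6.22% of all clones) and 7 lower (2.30%, against 4.8%), where 11% of all clones differed. At 220 days 63 were 2-fold higher in the mutant (20.7%, against 4.37%) and 4 were lower, where 6.56% of all clones differed. Of the 212 higher clones 5 were 2-fold higher and 5 lower at 150 days. There 156 of the 212 were above 0 on both arrays, against 2531 of all 5852 clones. At 170 days 53 were 2-fold higher (25%, against 7.95% of all clones) and 61 lower (28.8%, against 17.1%; 25% of all clones differed), which would also change places. A 2-fold difference at 190 days was found for 3 on the higher side and 5 on the lower. At 220 days 33 lay 2-fold lower (15.6%, against 2.19%) and 8 higher. These counts take many clones of like profile as separate clones, and no test was made of them.

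From 120 to 150 days the level in the mutant was at least 2-fold lower for 51 of the 212 higher clones (24.1%, against 9.21% of all clones) and at least 2-fold higher for 1. In the wild type it was at least 2-fold higher for 59 of them (27.8%, against 5.91%) and lower for 4. Of the 304 lower clones, the wild type was at least 2-fold lower for 68 (22.4%, against 4.80% of all clones) and higher for 0. The mutant moved both ways in these clones, lower for 48 (15.8%, against 9.21%) and higher for 34 (11.2%, against 14.2%). Both sets were chosen by their ratio at 120 days, and the levels were computed with the ratios. A return of the ratio toward 0 therefore moves the levels by itself. The shares of all clones, which were not chosen so, do not allow for this.

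Between 120 and 220 days most of the 2-fold clones came to lie on the other side of the typical clone. The median ratio of the lower clones was -1.36 in the first collection, -0.88 at 170 days and 0.81 in the last. In the last, 246 of the 304 were above 0 on both arrays, against 2242 of all 5852 clones. The medians of the higher clones were 1.21, 0.27, 0.10, -0.16 and -0.60 over the 5 collections. At 220 days 140 of the 212 were below 0 on both arrays, against 2575 of all 5852 clones. The controls Y1 to Y4 moved over the same time, from 2.02 and 2.04 at 120 days to -1.09 and -1.20 at 220 days, and their part in the result was not tested. Relative to these controls, the median of the higher clones was -0.82 at 120 days and 0.54 at 220 days, both of the opposite sign. That of the lower clones was -3.38 and 1.96.

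A single clone, 31.B.2, was 2-fold lower in all 5 collections, at -1.54 and -1.56 on the arrays of 120 days. Its ratios at 170 days were -1.21 and -1.34, so with the sign of 170 days turned it would be 2-fold higher there. As labelled, 0 of the 212 higher clones were 2-fold higher in all of them. Only clones of the 2-fold sets of 120 days could be, so both counts also hold over all 5852 clones. At none of the later collections was a 2-fold difference found for 84 of the higher clones (39.6%) and 97 of the lower clones (31.9%), against 64.5% of all clones. Without 170 days these counts were 161 and 130. The 64.5% includes 170 days, and the share of all clones without that collection was not computed.

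Over all clones, the ratios of 120 days correlated with those of 150 days at r = 0.37 (5849 clones), of 170 days at 0.20, of 190 days at 0.13 and of 220 days at -0.38. The points are clones, many of like profile, and the collections share no extract. Every pair of an array of 120 days with one of 220 days had r between -0.37 and -0.32. The dyes of all these arrays are stated in the labels, so the directions were kept as labelled.

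**Figure D5:**
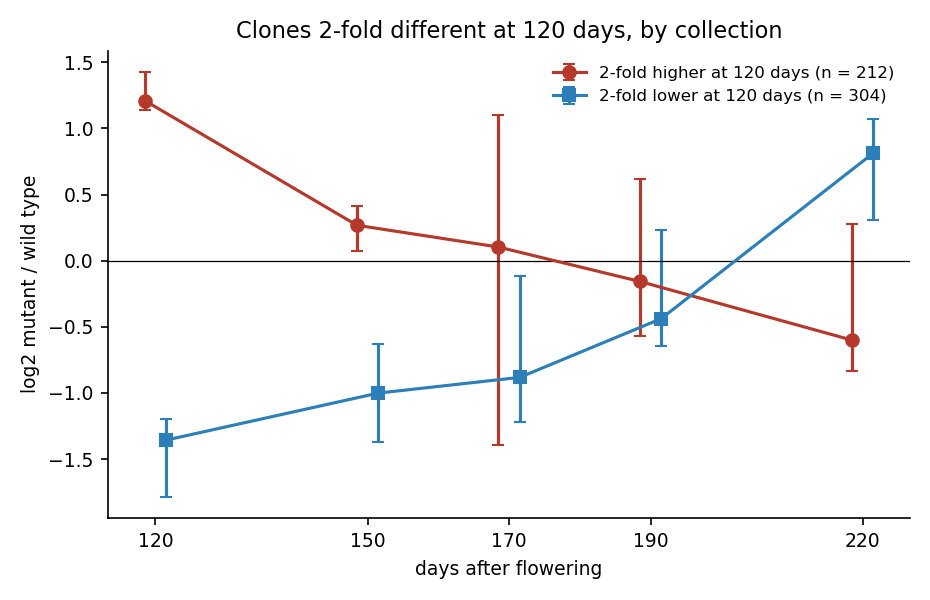
Median log2 ratio of mutant over wild type, with the quartiles over clones as bars, for the 212 clones 2-fold higher and the 304 clones 2-fold lower at 120 days, in each of the 5 collections. The clones were chosen at 120 days, and the medians are on the other side of 0 at 220 days, at -0.60 and 0.81.

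Whether the ratio of 120 days differed from the mean of the 4 later collections was tested in limma with 1 value per collection. Of 5846 clones 0 passed an adjusted p of 0.05 in limma, in either direction (0% higher and 0% lower). At an unadjusted p under 0.05 there were 20 higher (0.342%) and 18 lower clones (0.308%), where chance alone would give 292.3 in all. Clone 28.B.6 had a difference of -3.12 (SE 0.98) and clone 23.E.3 of -2.99 (SE 0.96), each with an adjusted p of 1 in limma. On the higher side, clones 60.E.11 and 49.D.7 stood near 0 at 120 days (-0.40 and -0.23) and at a mean of -2.81 and -2.40 later, with differences of 2.41 (SE 0.89) and 2.16 (SE 0.80). The clones with the smallest p in each direction, 42.H.9 and 57.G.3, were not above background in both genotypes at 120 days. Without 170 days 384 clones were under an unadjusted p of 0.05 in limma, and 0 passed the adjustment. The test takes the single value of 120 days to vary like the later ones. Of simulated differences it found 0% at a log2 size of 1 or 2 and 31.8% at 4. The simulated clones varied independently, while many clones here are of like profile, so these shares may not hold for the real data. A count of 0 does not show that no clone differed.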

How the data were processed

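RNA of both lines was amplified and labelled with Klenow enzyme, per the labels' protocols. The authors deposited an intensity in Cy3 and in Cy5 for each spot, per the file headers. Some values are below 0, and the scanner and any background correction are not stated in these sources. The authors' deposited ratio per spot is linear, with the mutant on top, and their deposited series table holds its log2. Their deposited lowess table gives 1 ratio per clone and collection.

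Intensities at or below 0 were left out (28 and 14 clone spots at 120 days). A global loess was fitted to the log2 ratios of each array, with the controls given weight 0 (limma 3.58.1, R 4.3.3), and signs were turned so that the mutant is on top. The 3 spots per clone were then averaged. Of 5856 clones, 5852 had at least 1 dye above the limit of background (95th percentile of blank and solvent spots) on 5 of the 10 arrays, and 5829 had both genotypes above it on both arrays of 120 days. The number of arrays limits the precision.

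The test used lmFit and eBayes with 3 residual degrees of freedom, two-sided, with Benjamini-Hochberg adjustment. It was checked on simulated data for 5846 clones. Named clones are the 10 highest and 10 lowest by the less extreme array, the 3 smallest p in limma in each direction, the 2 largest disagreements between the dyes and the 3 brightest. Members, rules and lists were chosen with earlier results of these data known. Clone 31.B.2 was named after its values were seen, and central clones follow from the groups. Alternatives changed the normalization, the filter, the spots and the arrays used.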

Additional observations from a re-analysis of the deposited data

Results flagged for a closer look

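At 170 days 998 clones were 2-fold lower, far above the counts of the remaining collections, 304 at 120 days among them. With the doubted sign of 170 days turned, these 998 would be higher clones and 465 would be lower. It was the only such value in 11 measures of the 5 collections, where chance would give about 0.55.

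The ratio at 120 days and that at a later collection had opposite signs on both arrays in 32 results, and no test was made of these differences. The results checked were both 2-fold sets, the profile groups and the highest and lowest named clones, and nearly all of them are among the 32. For each, the later collection given is the one with the most opposite ratio. With several later collections to pick from, an opposite sign is easily found. The share of all clones with an opposite sign at any later collection was not computed, so the 32 cannot be set against it. For the clones 2-fold higher at 120 days the median was -0.58 at 220 days, and for the lower clones it was 0.80. These and the following medians are means of the array medians. The groups around 9.G.4, 40.G.8 and 9.F.4 stood at -0.67, -1.10 and -0.80 at 220 days and the group around 39.H.7 at -1.68 at 170 days. The groups around 39.E.2, 40.G.3, 39.A.1, 10.B.12 and 54.G.8 stood at 0.88, 0.75, 1.37, 1.33 and 0.15 at 220 days. Those around 3.C.2 and 4.F.3 stood at 0.83 and 1.43 at 190 days.

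Of the highest clones, the ratios at 220 days were -1.46 for 33.B.12, -0.84 for 32.H.12, -0.57 for 55.E.2, -0.93 for 52.E.1, -1.15 for 35.C.6, -1.25 for 39.H.1, -1.17 for 40.C.3 and -1.09 for 31.C.12. Clone 13.E.5 stood at -1.08 at 190 days. Of the lowest, the ratios at 190 days were 1.51 for 28.B.6, 1.35 for 12.D.10, 1.45 for 23.E.3 and 1.45 for 24.G.8. At 220 days they were 0.83 for 31.F.6, 1.06 for 56.A.7, 0.88 for 40.B.8, 1.15 for 55.C.3, 0.92 for 38.F.4 and 0.22 for 12.D.12.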

How the results depend on the processing

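The counts of 2-fold clones rest on how the arrays are centred. The higher clones numbered 392 with median centring and 0 with centring on the controls Y1 to Y4, where the lower clones numbered 5553. With that centring the 10 highest clones fell below 0, at -0.26 for 33.B.12, -0.14 for 13.E.5, -0.34 for 32.H.12, -0.32 for 55.E.2, -0.38 for 52.E.1, -0.28 for 56.F.5, -0.37 for 35.C.6, -0.36 for 39.H.1, -0.42 for 40.C.3 and -0.43 for 31.C.12. The difference of 57.G.3 between 120 days and later became -0.15. This follows from the position of those controls, 2.02 and 2.04 above the median clone. Without replicate 1 or without replicate 2 the counts were 258 to 278 higher and 369 to 372 lower. Under the other alternatives run, both counts stayed within 1.5 times of 212 and 304. The test against later collections called 0 clones under all 20 alternatives, and from 10 to 1464 clones had an unadjusted limma p under 0.05. The replicate number marks the dye orientation. Same-numbered arrays deviated together with correlations from 0.08 to 0.40, so it was not taken as a pairing; with the replicate block, limma called 0 clones and gave 55 an unadjusted p under 0.05, against 68 without it.

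Chosen after seeing the data, centring on the controls put the median of the higher clones at -0.82 at 120 days and 0.54 at 220 days, in place of 1.21 and -0.60. Also chosen then, leaving out 170 days gave 161 higher clones with no later 2-fold difference in place of 84. The share of all clones was not computed without 170 days. A correlation limit of 0.8 gave 3 groups of lower clones in place of 7. The cause was not tested. Dim clones limit the precision.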
